A study of Mus musculus with 6 samples.

Results

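Chromatin accessibility was examined at Neat1 and Malat1, neighbouring genes for long noncoding RNAs on mouse chromosome 19. The members were the ATAC-seq peaks that the deposited annotation assigned to either gene within 100000 bp of its transcription start site (TSS), and they numbered 85 of 175929 peaks. Of these, 47 were assigned to Neat1 and 38 to Malat1, and the farthest lay 21379 bp from its TSS, so that no member was near the distance limit. The pair of genes was selected on the tag counts of the same oil and tamoxifen libraries that are compared here. The difference between the groups is therefore given as a description, without a test on the members.

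Neat1 and Malat1 RNAs are abundant, stay in the nucleus and are not translated. The long isoform of Neat1 is the scaffold of paraspeckles, nuclear bodies that hold RNA-binding proteins such as Nono and Sfpq, whereas the short isoform ends early at a polyadenylation site within the gene. Making the long isoform requires RNA polymerase II to read through that site. Malat1 RNA is found in nuclear speckles, which store splicing factors, and its 3' end is cut by RNase P, which releases a small tRNA-like RNA named mascRNA.

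The cells were GFP-positive, Lin- c-Kit+ leukaemia cells sorted from the spleens of recipient mice 3 days after the first injection. All 6 libraries came from AE9a leukaemia with 1 floxed Usp18 allele (Usp18+/f), in which AE9a, a truncated AML1-ETO fusion protein, was introduced with a retrovirus and a tamoxifen-inducible Cre is active in all tissues. Usp18 encodes a protease that removes ISG15 and restrains interferon signalling. The oil group (Usp18+/f) comprised replicates 1, 2 and 4. The tamoxifen group, labelled Usp18+/D for the loss of 1 Usp18 allele, comprised replicates 1, 3 and 4. Both groups carried the Cre, but only 1 group received tamoxifen, so the drug and the allele cannot be told apart. Whether the libraries are from different mice is not given in the labels. The paper's methods give 3 mice per group for its sorted sets, 1 of which served for paired ATAC-seq. Elsewhere the paper describes its ATAC-seq as duplicates. Here n counts libraries.

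Libraries held between 57.4 and 74.7 M tags, where M stands for 1000000, of which 17.5 to 21.1 M lay in peaks, or 28.2 to 30.5% of the total. Tamoxifen replicate 4 stood apart from the other tamoxifen libraries. A fit of all peaks with DESeq2 called 1150 of 175929 peaks (0.654%) at more than 2-fold and an adjusted p below 0.05, against 2710 without that library, and leaving out any other library lowered the count. Results are given with and without it. The promoters of the blast genes Kit (738 to 855 normalised tags), Myb (549 to 604) and Spi1 (285 to 334) were open in all libraries, the Gfi1 promoter held 17.6 to 33.1, and the Cd34 promoter had 73.9 to 117 tags after oil and 212 to 333 after tamoxifen, replicate 4 included, whose part in the results at Neat1 was not tested. No peak lay within 1000 bp of the Mpo TSS, a further blast marker. Among markers of other cells, Cd3e, Cd8a, Ms4a1, Hbb-bs, Ly6g, S100a8, Cdh5 and Pecam1 had no such peak. Those of Cd3g, Lck, Cd79a, Hba-a1, Epor, Itgam and Adgre1 held 11.1 to 131 tags. As the cells were measured in bulk, a change within each cell and a change in the share of cells cannot be told apart.

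Both genes lie on the minus strand. In RefSeq (GRCm38.p6, the assembly of mm10) the long Neat1 transcript spans chr19:5824708-5845478 (20771 bp), the short one chr19:5842296-5845480 (3185 bp) and Malat1 chr19:5795690-5802672 (6983 bp). Malat1 starts 22036 bp past the 3' end of Neat1 and is transcribed in the same direction. The 85 peaks were grouped by position. A start-site peak had its centre within 500 bp of the TSS, and a body peak lay between that limit and the end of the transcript. Neat1 had 2 start-site peaks, 35 body peaks and 9 upstream peaks. Malat1 had 1 start-site peak, 6 body peaks and 2 peaks just upstream. The remaining 30 peaks, of which the annotation gave 29 to Malat1 and 1 to Neat1, lay past the 3' end of Neat1 and more than 3000 bp before the Malat1 TSS. They are referred to as the interval between the genes.

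The stretches of DNA on which the results turn are printed 5' to 3' in lower case. The promoter sequences supplied from RefSeq matched Malat1 and not Neat1. The Malat1 promoter (chr19:5802623-5802922, minus strand) runs from 250 bases before to 50 after the start and represents the start sites that barely differed between the groups. The next is a peak between the genes (chr19:5818013-5818213, plus strand) that differed little from its oil level in any library while its neighbours differed widely. The third is the central 300 bases of the peak between the genes with the most tags (chr19:5822622-5822921, plus strand). The last is the central 300 bases of the peak with the most tags in the part of Neat1 that only the long isoform covers (chr19:5837441-5837740, plus strand). Capitals mark matches to the motifs described next.
Malat1 promoter: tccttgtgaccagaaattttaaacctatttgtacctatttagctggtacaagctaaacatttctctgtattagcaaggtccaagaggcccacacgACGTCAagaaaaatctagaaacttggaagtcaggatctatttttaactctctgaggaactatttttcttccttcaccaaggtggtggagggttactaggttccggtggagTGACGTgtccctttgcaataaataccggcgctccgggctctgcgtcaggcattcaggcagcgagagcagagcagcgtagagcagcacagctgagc
Peak with little difference between the genes: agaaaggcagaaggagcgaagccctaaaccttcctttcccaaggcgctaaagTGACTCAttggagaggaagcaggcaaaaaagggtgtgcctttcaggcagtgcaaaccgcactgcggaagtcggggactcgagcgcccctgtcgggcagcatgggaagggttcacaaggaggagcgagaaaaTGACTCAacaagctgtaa
Most tags between the genes: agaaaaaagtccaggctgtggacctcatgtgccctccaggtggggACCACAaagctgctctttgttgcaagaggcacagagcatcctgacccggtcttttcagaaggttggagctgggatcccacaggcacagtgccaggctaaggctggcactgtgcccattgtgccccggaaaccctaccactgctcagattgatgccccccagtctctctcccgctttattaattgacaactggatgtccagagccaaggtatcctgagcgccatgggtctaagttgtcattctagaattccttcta
Most tags in the long part of Neat1: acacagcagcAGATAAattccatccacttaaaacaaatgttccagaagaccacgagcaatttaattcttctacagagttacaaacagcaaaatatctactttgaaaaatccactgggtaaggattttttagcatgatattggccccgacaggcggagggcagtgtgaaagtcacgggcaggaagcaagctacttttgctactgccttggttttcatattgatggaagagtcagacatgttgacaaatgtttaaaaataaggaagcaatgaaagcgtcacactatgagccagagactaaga

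Each strand was searched for 5 motifs, and the matches marked do not overlap. The letters searched were TGTGGT for RUNX factors, TGANTCA for AP-1, AGGAAGT for ETS factors, AGATAA for the GATA family and TGACGT for a half-site of the cyclic AMP response element (CRE). The Malat1 promoter held 2 CRE half-sites and none of the other motifs. Among 32851 promoters of the same length, 7.51% held a CRE half-site. The peak with little difference between the genes held 2 AP-1 matches, where 6.61% of all peaks held an AP-1 match in their central 200 bp and 0.357% at least 2. The printed bases of the peak with the most tags between the genes held a RUNX match and those of the Neat1 peak a GATA match, both outside the central 200 bp, in which 18.7% and 15.1% of all peaks held these motifs. Among the 85 members, 15 held RUNX (17.6%), 8 AP-1 (9.41%), 5 GATA (5.88%), 3 the CRE half-site (3.53%, against 3.43% of all peaks) and 2 ETS (2.35%, against 9.70%). A match is a stretch of letters and does not show binding.

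In the oil libraries, accessibility was high at both start sites and extended through the whole of Neat1 and beyond. Levels are normalised tags, that is tags divided by the DESeq2 size factor of the library, and per kb of peak. The Neat1 start site held 2697 ± 115 tags per kb (SD, n = 3) after oil, the short-isoform part of the body 1657 ± 77.4, the part that only the long isoform covers 874 ± 25.2 and the interval between the genes 292 ± 30.1. Malat1 held 2453 ± 130 tags per kb at its start site and 1726 ± 47.7 in its body. By tags per kb in gene-body peaks after oil, Malat1 ranked 55 and Neat1 324 among 14158 genes with such peaks. In stretches of 5 kb past the Neat1 end, the oil libraries held 393 ± 38.2, 469 ± 48.5, 150 ± 17.9 and 124 ± 20.4 tags per kb, the second stretch being that with the densest peak of the interval.

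**Figure D1:**
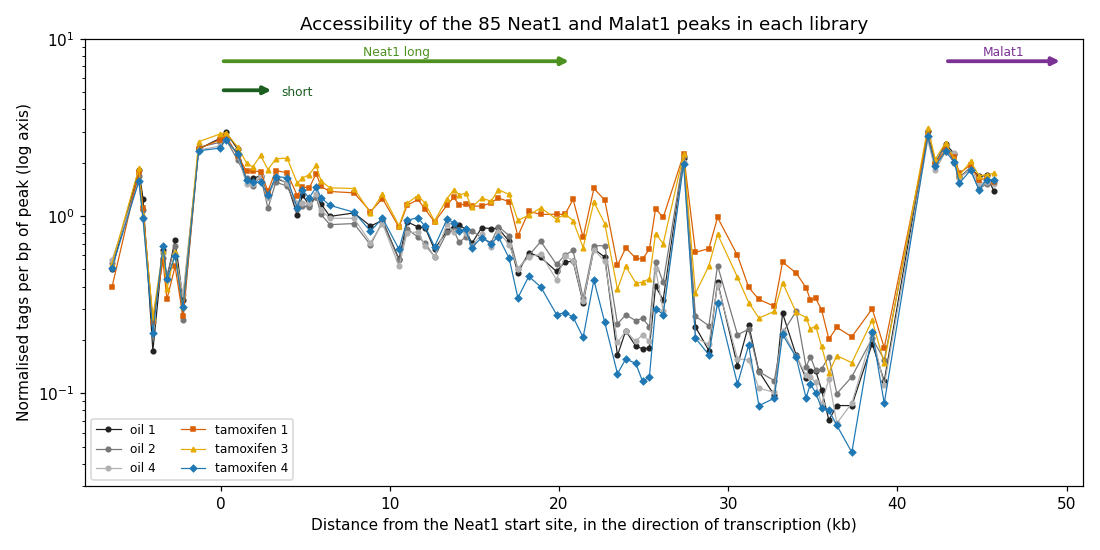
Normalised tags per bp of peak (log axis) for the 85 peaks in each of the 6 libraries, against distance from the Neat1 TSS in kb in the direction of transcription. Arrows mark the transcripts. All libraries overlie each other at both start sites and over Malat1. Tamoxifen 1 and 3 lie above oil from within Neat1 to near Malat1, and tamoxifen 4 drops below oil near the Neat1 end.

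The start sites of both genes barely differed between the groups. The 2 Neat1 start-site peaks together held 1802, 1685 and 1668 normalised tags in oil replicates 1, 2 and 4, and 1747, 1861 and 1604 in tamoxifen replicates 1, 3 and 4. The groups overlapped, and the log2 change of the group means (1718 ± 73.0 against 1737 ± 129, SD, n = 3) was 0.02, or 0.07 without tamoxifen replicate 4. The peak over the Neat1 TSS (chr19:5845338-5845729, across the start of the exon) held 1074, 1020 and 973 tags after oil and 1055, 1136 and 947 after tamoxifen. The second, within the exon 311 bp past the TSS (chr19:5845045-5845289), held 728, 665 and 695 against 692, 725 and 657. Their log2 changes from DESeq2 were 0.03 (SE 0.08) and -0.01 (SE 0.09).

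The Malat1 start-site peak (chr19:5802528-5802737) held 536, 525 and 484 tags after oil and 499, 545 and 486 after tamoxifen. The groups overlapped and the log2 change was -0.01 (SE 0.10). The 2 peaks just upstream of Malat1 were alike, as the nearer (chr19:5803038-5803437) held 795, 796 and 726 against 782, 836 and 767 and the farther (chr19:5803578-5803784) 624, 578 and 555 against 594, 652 and 582. Their log2 changes were 0.04 (SE 0.08) and 0.06 (SE 0.09). The authors kept at most 3 tags per position, which limits counts where tags are dense. The start-site peaks held 2.61 and 2.84 (Neat1) and 2.45 (Malat1) tags per bp after oil, at the 97.7, 98.2 and 97.1 percentiles of all peaks by density. The part of that limit in the small differences was not tested.

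Over the Neat1 body, tamoxifen replicates 1 and 3 lay above all oil libraries and tamoxifen replicate 4 did not. The 35 body peaks summed to 13712, 12904 and 13082 tags after oil and to 17872, 19551 and 13423 after tamoxifen. Replicates 1 and 3 were 0.43 and 0.56 above the oil mean on the log2 scale, and replicate 4 was within the oil range, at 0.02. The log2 change of the group means (13233 ± 425 against 16948 ± 3166, SD, n = 3) was 0.36, and 0.50 without replicate 4. Expressed within each library, which cancels differences in depth, the body held 7.61, 7.66 and 7.84 times the tags of the start site after oil and 10.2, 10.5 and 8.37 times after tamoxifen. All 3 tamoxifen ratios lay above the oil ratios, with a mean log2 difference of 0.33, or 0.43 without replicate 4. In replicate 4 the body sum was within the oil range. Its start-site sum of 1604 tags was below all oil values (1668 to 1802), which raised its ratio.

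The difference depended on position within the gene. The 5 body peaks within the short isoform summed to 2666, 2431 and 2521 tags after oil and 2746, 3182 and 2565 after tamoxifen, a log2 change of 0.16 with overlapping groups. The 30 peaks that only the long isoform covers summed to 11046, 10473 and 10561 against 15126, 16369 and 10858, a log2 change of 0.40. There too the groups overlapped, as tamoxifen replicate 4 lay within the oil range. Without tamoxifen replicate 4 the log2 changes were 0.22 and 0.56, and without replicate 3 they were 0.065 and 0.28. The long part held 4.14, 4.31 and 4.19 times the tags of the short part after oil, and 5.51, 5.14 and 4.23 times after tamoxifen. Replicates 1 and 3 thus lay above the oil ratios and replicate 4 within them.

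In stretches of 5 kb along Neat1, the log2 difference from the oil mean was 0.16 in tamoxifen replicate 1 and 0.39 in replicate 3 up to 5 kb, 0.46 and 0.55 from 5 to 10 kb, 0.56 and 0.64 from 10 to 15 kb, and 0.70 and 0.78 from 15 kb to the end. In replicate 4 it was 0.06, 0.14, 0.14 and -0.41 over the same stretches. That library was therefore slightly above the oil mean for most of the gene and below it in the last stretch. Across the 35 body peaks, which share libraries and lie side by side, the log2 difference from oil correlated with distance from the TSS at Pearson r = 0.91 in replicate 1, 0.88 in replicate 3 and -0.62 in replicate 4.

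**Figure D2:**
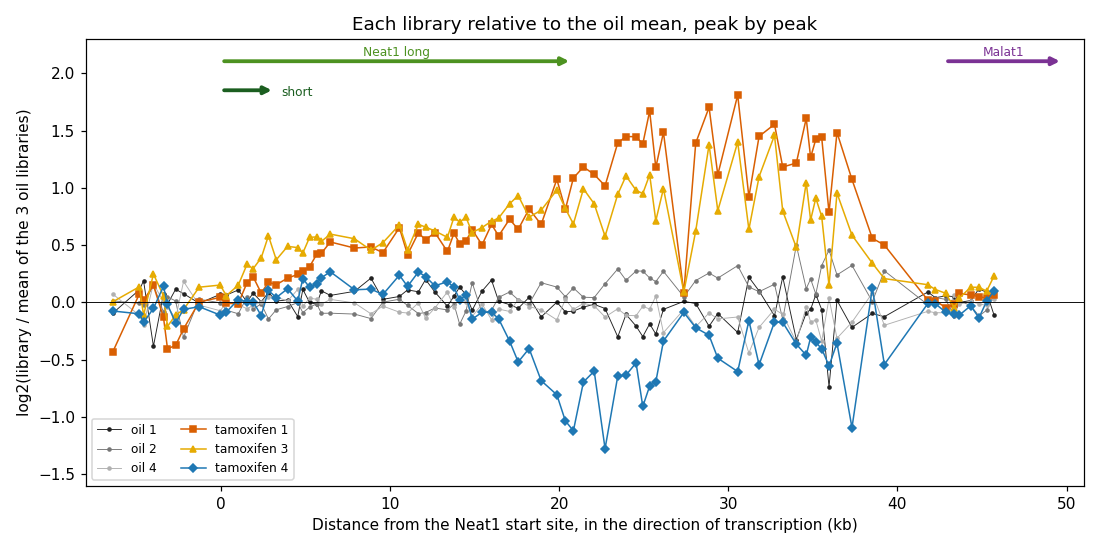
Log2 ratio of each library to the mean of the 3 oil libraries at each of the 85 peaks, against distance from the Neat1 TSS in kb. Tamoxifen 1 and 3 move away from 0 along Neat1 and reach maxima of 1.81 and 1.46 between the genes, tamoxifen 4 goes to -1.27 past the Neat1 end, and all return to near 0 at a single peak between the genes and at Malat1.

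Single peaks showed the same order. The peak 1014 bp past the TSS (chr19:5844273-5844656), in the exon shared by both isoforms, held 916, 793 and 838 tags after oil and 843, 943 and 864 after tamoxifen, with a log2 change of 0.06 (SE 0.08). The peak at 3931 bp (chr19:5841151-5841943), past the end of the short isoform, held 1219, 1172 and 1212 against 1392, 1686 and 1305, with a log2 change of 0.28 (SE 0.09). The groups overlapped at the first peak and not at the second, where all 3 tamoxifen values were higher.

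Farther along the exon of the long isoform, the peak at 6459 bp (chr19:5838741-5839297) held 555, 498 and 542 tags after oil and 766, 804 and 640 after tamoxifen, with a log2 change of 0.47 (SE 0.10). The peak at 7888 bp (chr19:5836915-5838266), the widest of the members at 1352 bp, held 1407, 1226 and 1312 against 1828, 1934 and 1420, with a log2 change of 0.39 (SE 0.10). The peak at 9568 bp (chr19:5835565-5836256) held 654, 643 and 628 against 867, 921 and 674, with a log2 change of 0.35 (SE 0.10). In these 3 peaks all tamoxifen libraries lay above all oil libraries, with replicate 4 the lowest of them.

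Near the 3' end the tamoxifen libraries parted. The peak at 18928 bp (chr19:5826120-5826980) held 503, 619 and 525 tags after oil and 880, 959 and 342 after tamoxifen. Replicates 1 and 3 were above and replicate 4 below all oil libraries, and the log2 change was 0.41 (SE 0.45) with replicate 4 and 0.74 (SE 0.10) without it. The peak at 20358 bp (chr19:5824901-5825340), the last in the body, held 242, 265 and 261 against 450, 452 and 125. Of the 9 body peaks beyond 15 kb, replicates 1 and 3 were above all oil libraries at 9 and replicate 4 was below all of them at 7.

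Past the annotated end of Neat1 lay the single peaks with the widest differences in replicates 1 and 3, at 1.81 and 1.46 on the log2 scale. Summed over the interval, replicate 3 differed slightly less than in the last stretch of Neat1 (0.74 against 0.78). The 30 peaks between the genes summed to 2648, 3108 and 2584 tags after oil and to 6039, 4646 and 1938 after tamoxifen. Replicates 1 and 3 were 1.12 and 0.74 above the oil mean on the log2 scale, and replicate 4 stood at -0.52. The group means were 2780 ± 286 and 4208 ± 2085 (SD, n = 3), with a log2 change of 0.60. It was 0.94 without replicate 4 and 0.24 without replicate 1, so that its size rested on these libraries. Replicate 1 was above all oil libraries at 30 of the 30 peaks and replicate 3 at 27, whereas replicate 4 was below all of them at 27 and above them at 1.

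The size of the difference between the genes varied with position. In stretches of 5 kb from the Neat1 end, replicate 1 was 1.19, 0.97, 1.33 and 0.79 above the oil mean on the log2 scale, replicate 3 was 0.81, 0.64, 0.89 and 0.40 above it, and replicate 4 stood at -0.87, -0.23, -0.31 and -0.41. Replicate 4 was lowest relative to oil in the first stretch, where it held 707 tags against 1202, 1434 and 1236 after oil. Across the 30 peaks, which share libraries and lie side by side, the log2 differences of replicates 1 and 3 correlated at Pearson r = 0.88, and those of replicates 1 and 4 at -0.14. Peaks with a wide difference in replicate 1 were thus those with a wide difference in replicate 3, with no such relation to replicate 4.

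**Figure D3:**
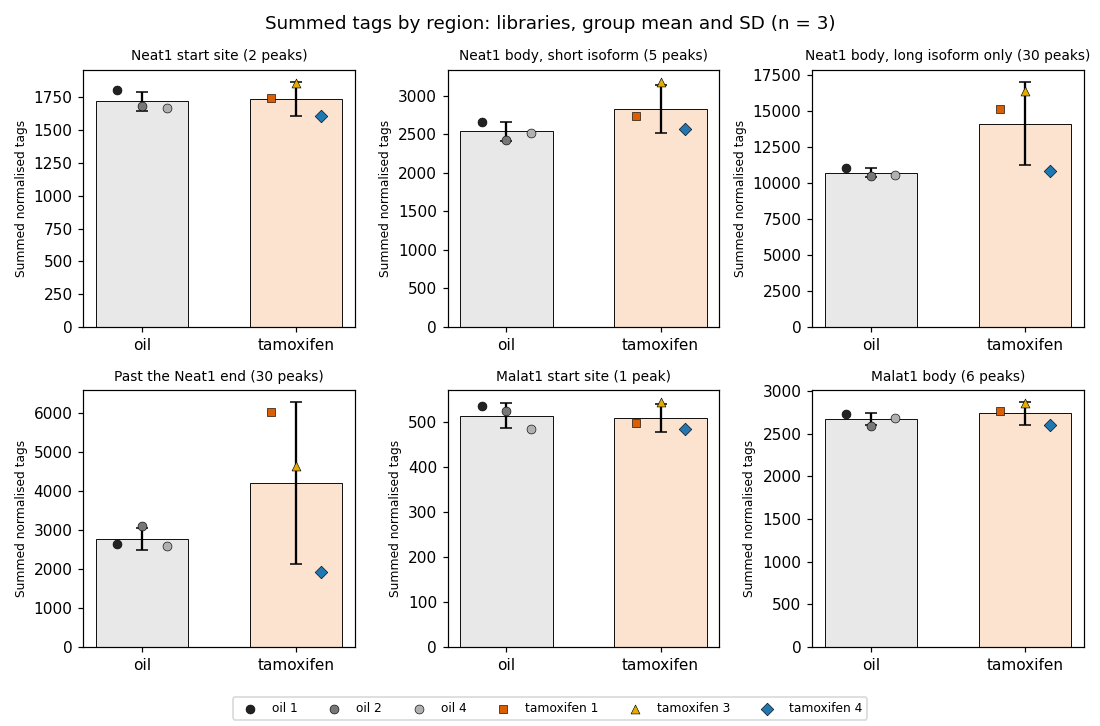
Summed normalised tags by region in the oil and tamoxifen libraries (points), with the group mean (bar) and SD (error bar, n = 3). The tamoxifen points lie close to the oil points at both start sites and over the Malat1 body, and are spread from 1938 to 6039 past the Neat1 end, where oil runs from 2584 to 3108.

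At the peak with the most tags in this interval (chr19:5822466-5823077, whose central bases are printed above), oil libraries held 359, 416 and 340 tags and tamoxifen libraries 753, 555 and 154. At chr19:5814720-5815136, which had the largest log2 change of the members and was chosen after its values were seen, the values were 59.6, 89.2 and 65.4 after oil and 250, 188 and 47.0 after tamoxifen. Its log2 change was 1.18 (SE 0.68) with replicate 4 and 1.62 (SE 0.21) without it. At both peaks replicates 1 and 3 were above and replicate 4 below all oil libraries.

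The peak at chr19:5818013-5818213, 6595 bp past the Neat1 end, went against its neighbours. It held 425, 436 and 404 tags after oil and 448, 450 and 397 after tamoxifen, with a log2 change of 0.03 (SE 0.10). It was the densest peak between the genes, at 2.10 tags per bp, and holds the AP-1 matches marked above. The next peak before it, 5389 bp past the end, held 151, 190 and 131 against 441, 314 and 125, and the next after it, 7298 bp past the end, 93.8, 108 and 81.5 against 247, 145 and 81.0. Without this peak, the interval had a log2 change of 0.68, or 1.05 without replicate 4. The part of the limit on tags per position in its small difference was not tested.

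The 2 peaks nearest Malat1 in the interval, 18453 and 17741 bp past the Neat1 end, differed less, with log2 changes of 0.11 (SE 0.25) and 0.34 (SE 0.26). The first held 78.3, 103 and 74.4 tags after oil and 121, 98.6 and 58.7 after tamoxifen, with overlapping groups. The second held 43.6, 46.8 and 49.3 against 68.6, 59.1 and 50.7, and was the peak at which all 3 tamoxifen libraries, replicate 4 included, were above oil.

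Over the Malat1 body the groups barely differed. The 6 body peaks summed to 2734, 2589 and 2687 tags after oil and 2759, 2857 and 2595 after tamoxifen, a log2 change of 0.04 with overlapping groups. The ratio of body to start site was 5.10, 4.93 and 5.55 after oil and 5.53, 5.24 and 5.34 after tamoxifen. The peak at 1521 bp (chr19:5800947-5801356) held 768, 745 and 765 against 795, 833 and 744, that at 2468 bp (chr19:5800053-5800355) 513, 461 and 474 against 496, 518 and 487, and that at 556 bp (chr19:5802014-5802219) 463, 412 and 467 against 442, 433 and 416. All 3 lie in the Malat1 exon, and the log2 changes of the 6 peaks ran from -0.06 to 0.13.

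The annotation gives the rest of the Malat1 transcript to Mascrna, and these peaks were no members. The 7 Mascrna peaks within the Malat1 transcript summed to 3251, 3126 and 3152 tags after oil and 3181, 3697 and 3220 after tamoxifen, a log2 change of 0.08. The 19 that lie up to 11.5 kb past the Malat1 end summed to 5220, 5288 and 5698 against 6054, 5991 and 4916. Replicates 1 and 3 were thus 0.16 and 0.15 above the oil mean and replicate 4 lay at -0.14 on the log2 scale. As past the Neat1 end, tamoxifen replicates 1 and 3 were above and replicate 4 below all oil libraries, with smaller differences.

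**Figure D4:**
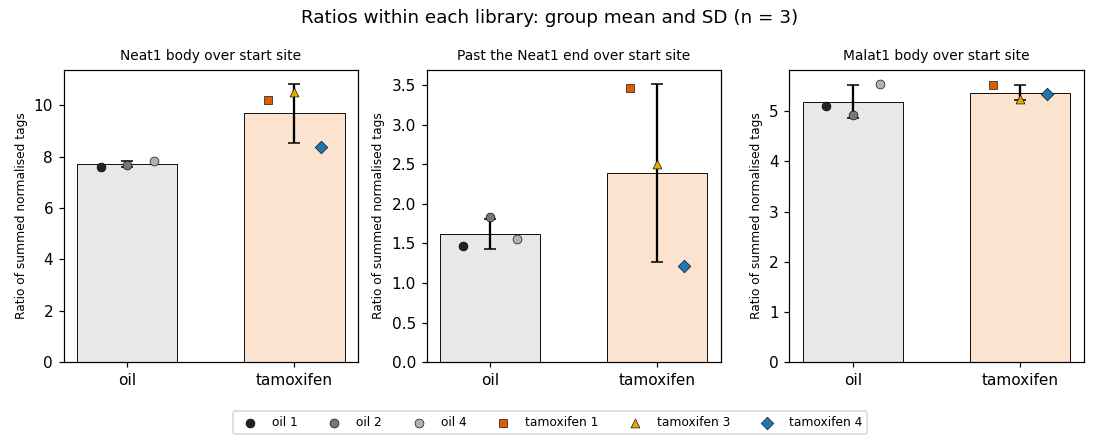
Ratio of summed normalised tags within each library (points), with the group mean (bar) and SD (error bar, n = 3). The Neat1 body over its start site runs from 7.61 to 7.84 after oil and from 8.37 to 10.5 after tamoxifen, the stretch past the Neat1 end over the start site spans 1.21 to 3.46 after tamoxifen, and the Malat1 ratios overlap.

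Upstream of Neat1 the groups overlapped at each of the 9 peaks. These lie 1295 to 6418 bp before the TSS, the farthest over the 3' end of Frmd8, and summed to 1844, 1776 and 1719 tags after oil and 1694, 1838 and 1696 after tamoxifen. Their log2 changes ran from -0.22 to 0.12. The 22 other genes with a peak within 200000 bp of either TSS, Mascrna among them, had 175 peaks with a median log2 change of 0.01. DESeq2 called 0 of them in either direction (0.654% of all peaks), and 1, near Kat5, was called lower without tamoxifen replicate 4. So few peaks would hold few calls at that share, and nothing is read from these counts.

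In the DESeq2 fit of all peaks, 0 of the 85 members passed both the 2-fold limit and an adjusted p of 0.05, which 0.654% of all peaks passed, and edgeR also called 0. At an unadjusted p under 0.05 there were 23 of the 85 members, against 15868 of all 175929 peaks. At an adjusted p under 0.05 without the fold limit, 8 members were higher after tamoxifen, all in the Neat1 body between 5 and 15 kb from the TSS, against 1.22% of all peaks. Without tamoxifen replicate 4, 18 members were called higher (1.10% of all peaks) and 0 lower, of which 17 lay between the genes and 1 in the Neat1 body, and 50 were higher at an adjusted p under 0.05 alone (2.29% of all peaks). All 3 tamoxifen values were above all 3 oil values at 17 members (11.9% of all peaks) and below them at 0. The median log2 change of the members was 0.40, or 0.58 without replicate 4, and that of all peaks 0.00 without it. Since the genes were selected on this contrast, and neighbouring peaks share their libraries, nothing is read from these counts.

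For comparison, the same quantities were computed at other genes. Neat1 and Malat1 were selected on this contrast, so their places among the other genes are a description and not a test. Among 4034 other genes with a start-site peak and at least 3 body peaks, each with a mean sum of at least 200 tags, the tamoxifen-minus-oil difference in the log2 ratio of body to start had a median of -0.01, with 5th and 95th percentiles of -0.27 and 0.27. Neat1, at 0.33, was exceeded by 125 of them, and Malat1, at 0.05, by 1338. By library, Neat1 was exceeded by 99 genes in tamoxifen replicate 1, 126 in replicate 3 and 1314 in replicate 4, where it stood at 0.11. Summed over peaks up to 20 kb past the gene end and over 1000 bp from any TSS, 9211 other genes had a median log2 difference from the oil mean of -0.02 in tamoxifen replicate 1, -0.03 in replicate 3 and -0.02 in replicate 4. Neat1 was exceeded by 6 genes in replicate 1 and 98 in replicate 3, and 43 genes were lower in replicate 4. The windows of neighbouring genes overlap, so these genes are not independent of each other. Besides Neat1, the gene over 0.5 in replicates 1 and 3 and under -0.5 in replicate 4 was Cd24a. Its 5 peaks summed to 202, 186 and 202 tags after oil and 293, 334 and 131 after tamoxifen. This pattern is that of Neat1 itself, so nothing is read from how few genes share it.

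**Figure D5:**
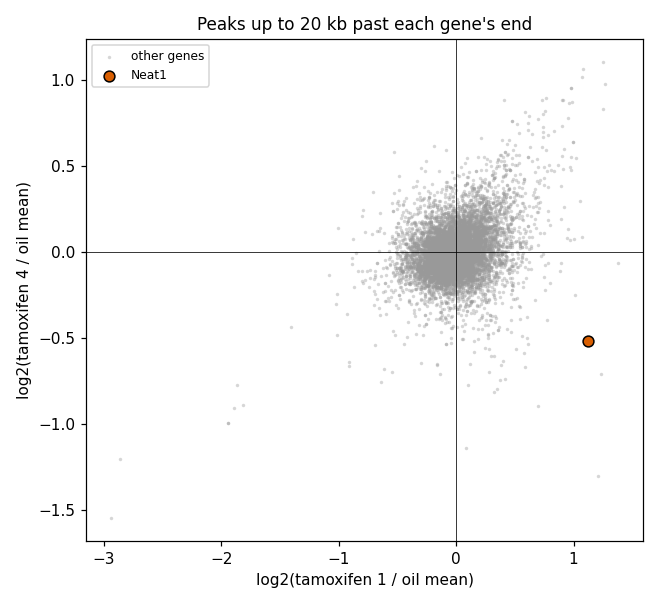
Summed peaks up to 20 kb past each gene's end, as log2 ratio to the oil mean in tamoxifen replicate 1 (horizontal) and replicate 4 (vertical), for Neat1 and 9211 other genes (1 point a gene). Neat1 lies at 1.12 and -0.52, away from most genes, which lie near 0 on both axes.

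The genes whose accessibility away from the TSS varied most like that of Neat1 over the 6 libraries were Rbl1 (Pearson r = 0.997), Nek11 (0.996), Zmynd11 (0.994), Nmur2 (0.993) and F12 (0.993), of 11336 genes. Their log2 changes ran from 0.10 (Rbl1) to 0.35 (Nmur2), against 0.32 for Neat1. Those most like Malat1 were Plk3 (0.998), Irf8 (0.994), C1qtnf6, Mroh4 and Grm4 (0.992 each). The Malat1 sum covers its 37 peaks away from the TSS, including the peaks between the genes that carry its name. Irf8, which encodes a transcription factor of monocytes and dendritic cells, had summed peaks 0.55 and 0.41 above the oil mean in tamoxifen replicates 1 and 3 on the log2 scale and at -0.13 in replicate 4. Each r rests on 6 libraries and is given as a description.

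Peaks near the genes for the proteins of the same nuclear bodies were also examined. The 20 paraspeckle protein genes, among them Nono, Sfpq and Pspc1, had 186 peaks with a median log2 change of -0.06, and DESeq2 called 0 of them in either direction (0.654% of all peaks), with 2 called lower without tamoxifen replicate 4. At the 0.654% called over all peaks, so few peaks would hold few calls, and nothing is read from these counts. The 2 were near Srsf10 and Cpsf6, with 42.4 to 58.5 tags after oil and 11.6 to 41.0 after tamoxifen at the first and 36.4 to 54.7 against 15.6 to 34.9 at the second, replicate 4 being the highest tamoxifen library at both. The 20 nuclear speckle protein genes, among them Srrm2, Son and Srsf2, had 333 peaks with a median of 0.01. DESeq2 called 0 of them (0.654% of all peaks), and 1, assigned to Prpf4b, was called lower without replicate 4. In the 20 other genes with the most tags per kb in their bodies after oil, 0 of 39 body peaks were called, with a median of 0.02. Nothing is read from the counts of these lists either.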

How the data were processed

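ATAC-seq was measured in 6 libraries, 3 per group. The authors mapped reads to mm10 with Bowtie2 and used HOMER to call peaks in each group, merge them and count tags, as the methods and file header give. The deposited values are estimated counts, raw tags per peak in steps of 0.5, not normalised and limited to 3 tags per position. Peaks were annotated to the nearest TSS by HOMER, so 29 of the 30 peaks past the end of Neat1 carry the name of Malat1. The peaks were called on the libraries compared.

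Tags were rounded to whole numbers and fitted over all 175929 peaks with DESeq2 1.42.0 (R 4.3.3), a Wald test with Benjamini-Hochberg adjustment, and alternatively with edgeR 4.0.16 (robust quasi-likelihood). Both were tested on simulated data. Calls required more than 2-fold and an adjusted p below 0.05. Sums used unrounded tags divided by DESeq2 size factors. Named peaks were those at the start sites and the 8 with the most tags per gene. Others are named to mark the end of the gene, the interval and its neighbours, after their values were seen. Size factors, filters, windows, thresholds and libraries were varied 1 at a time. Where libraries are not from separate mice, p-values measure only the spread between libraries. No peak ended beyond the reference on the 21 chromosomes compared (0). The members and lists were chosen with earlier results of these data known. Some genes of the lists are not reported here by name.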

Additional observations from a re-analysis of the deposited data

How the results depend on the processing

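Leaving out tamoxifen replicate 4 took the members called from 0 to 18 (range 0 to 18 over the 6 libraries left out in turn) and the log2 change of the Neat1 body from 0.36 to 0.50 and of the interval between the genes from 0.60 to 0.94. Leaving out tamoxifen replicate 1 took the interval to 0.24, and leaving out replicate 3 took the short part of Neat1 from 0.16 to 0.065. The count over all peaks was 1150, with a range of 369 to 2710 when 1 library was left out: 609, 547 and 661 without oil replicates 1, 2 and 4, and 637, 369 and 2710 without tamoxifen replicates 1, 3 and 4. DESeq2 also called 0 members with each other set of size factors, at an adjusted p under 0.1 and with distal and promoter-proximal peaks fitted apart. Without a fold limit 8 members and 2448 peaks were called, and edgeR called 1815 peaks. Replicate numbers 1 and 4 occur in both groups. Deviations from the group means correlated at -0.044 and 0.051 for these numbers. Such values do not show whether samples with the same number share an origin, and the labels do not say. With the numbers as a replicate block, 52 peaks were called, 0 of 84 members with an adjusted p, and the log2 change was 0.21 for the Neat1 body, 0.034 for its short part (0.16 without the block), 0.25 for its long part (0.40) and 0.39 for the interval. Other size factors, start-site windows of 250 and 1000 bp and the median over peaks kept each log2 change of the start sites, the bodies and the interval within the spread between libraries. Each peak had a mean of at least 10 tags, so that this filter removed none (0). The sums for the interval and for the parts of Neat1 were added after the data were seen. The lowest value of any member in a library was 14.5 tags, and single weak peaks carry the most counting error.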

Other observations

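Among the 20 other long noncoding RNA genes listed, 17 had peaks, 229 in all, with a median log2 change of -0.02. DESeq2 called 12 of these peaks higher after tamoxifen and 0 lower, where 0.654% of all peaks were called in either direction. The numbers were the same without tamoxifen replicate 4, where 1.10% of all peaks were called higher. Of the 12, 10 were assigned to Gm14005, 1 to Kcnq1ot1 and 1 to Mir155hg. The list was drawn up with earlier results of these data known, so nothing is read from this count. At the Gm14005 start site (chr2:128428986-128429459) the oil libraries held 35.9, 45.8 and 39.4 normalised tags and the tamoxifen libraries 116, 155 and 83.3, a log2 change of 1.55 (SE 0.26, DESeq2 adjusted p = 1.62e-06). In contrast to Neat1, the start site differed there, and replicate 4 lay with the other tamoxifen libraries. In Kcnq1ot1, an imprinted RNA of 1 exon, the called peak lay 13678 bp past the TSS and held 26.5, 32.2 and 35.4 tags against 62.3, 82.4 and 54.0 (log2 change 1.06, SE 0.29, DESeq2 adjusted p = 0.0254). The Mir155hg peak, 14079 bp before its TSS, held 16.0, 28.3 and 26.4 against 49.8, 82.4 and 61.0 (log2 change 1.44, SE 0.32, DESeq2 adjusted p = 0.00165).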
